A study of Homo sapiens with 4 samples.

Results

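Heat shock proteins are molecular chaperones, and their genes were examined in 4 cultures of human prostate cancer cells, each measured on 1 Affymetrix whole-transcript array. The genes were chosen by symbol alone, as HSPA, HSPB, HSPD, HSPE, HSPH, HSP90 or DNAJ followed by letters or digits, and 18 of the 14006 genes with a named probe matched. These 18 were 12 HSPA genes, 4 whose symbol begins with HSPB, HSPD1 and HSPH1. No DNAJ, HSP90 or HSPE gene was among them. HSP40 co-chaperones and HSP90 family members under these symbols are therefore not analysed here, nor are HSPA5 and HSPA8. HSPBAP1 matched the pattern although it encodes a protein that binds a small heat shock protein and is no chaperone itself, and HSPA7 is annotated as a transcribed pseudogene.

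PC3 cells come from a bone metastasis of prostate cancer and grow without androgen, whereas LNCaP cells come from a metastasis in a lymph node and depend on it. PC3-L (low) and PC3-H (high) were isolated from PC3 by their laminin-binding glycan, through the antibody IIH6C4. These glycan labels follow titles and source names, and the free-text descriptions give them the other way round. LNCaP-AI is described as cells derived from LNCaP in charcoal-stripped serum, androgen-independent and low for the glycan. The LNCaP culture is given as androgen-dependent and high for it, although the free-text descriptions call LNCaP androgen-independent. A further label of LNCaP-AI names medium conditioned by perineural cells. High motility and invasion are given for PC3-L and LNCaP-AI, and low for PC3-H and LNCaP. All were cultures of tumour cell lines in serum with antibiotics, and the sources used here do not say whether a culture is 1 clone. Each group had 1 array, so the differences below have no replicate error, and no p-value was computed within a pair.

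HSP70 proteins hold unfolded stretches of client proteins and release them in cycles of ATP binding and hydrolysis, aided by J-domain proteins and by nucleotide exchange factors, among them the HSP110 family. Small heat shock proteins such as the product of HSPB1 hold denatured proteins in a state that can be refolded, and the chaperonin encoded by HSPD1 folds proteins inside mitochondria. Under heat or protein damage the transcription factor HSF1 binds heat shock elements, which are inverted repeats of GAA, and activates the inducible members. High levels of inducible HSP70 and of HSPB1 have been described in many carcinomas, prostate cancer included.

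The upstream sequences of the inducible pair HSPA1A and HSPA1B are shown first, because this pair had the largest differences among the 18 genes. Each is the 250 bases before the RefSeq start (GRCh38.p14, plus strand, chr6:31815293-31815542 and chr6:31827488-31827737), and capitals mark the 8-letter match to GAANNTTC, that is 2 blocks of a heat shock element.
HSPA1A: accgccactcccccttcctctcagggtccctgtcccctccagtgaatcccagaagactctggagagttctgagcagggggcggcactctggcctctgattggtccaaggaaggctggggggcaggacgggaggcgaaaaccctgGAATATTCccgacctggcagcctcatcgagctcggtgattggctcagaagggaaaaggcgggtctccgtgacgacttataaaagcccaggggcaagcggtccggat
HSPA1B: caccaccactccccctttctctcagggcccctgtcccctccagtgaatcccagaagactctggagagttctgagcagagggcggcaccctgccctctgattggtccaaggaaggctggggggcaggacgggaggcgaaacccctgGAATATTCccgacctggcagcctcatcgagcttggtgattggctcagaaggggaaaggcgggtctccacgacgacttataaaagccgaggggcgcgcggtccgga
In a global alignment 235 of 251 positions were identical (93.6%), and the same GAATATTC stood 106 to 99 bases before the start of HSPA1A and 105 to 98 bases before that of HSPA1B. HSPA1L, a relative expressed mainly in testis, lies head to head with HSPA1A on the minus strand, with 259 bases between the starts. The 250 bases upstream of these genes overlap by 241, so the windows of HSPA1A and HSPA1L hold the same GAATATTC.

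A 3-block heat shock element, searched on both strands as GAANNTTC followed by NNGAA or TTCNNGAA followed by NNTTC, was found for 2 of the 15 genes with a promoter window in RefSeq, HSPA6 and HSPD1. By window it occurred in 2 of the 19 windows of these genes and in 172 of 35116 windows in the whole table (0.49%). These genes are shown with the 3-block matches in capitals, HSPA6 over 250 bases (plus strand, chr1:161524290-161524539) and HSPD1 over 30 bases of the second of its windows (minus strand, chr2:197500061-197500090), where overlapping matches run together.
HSPA6: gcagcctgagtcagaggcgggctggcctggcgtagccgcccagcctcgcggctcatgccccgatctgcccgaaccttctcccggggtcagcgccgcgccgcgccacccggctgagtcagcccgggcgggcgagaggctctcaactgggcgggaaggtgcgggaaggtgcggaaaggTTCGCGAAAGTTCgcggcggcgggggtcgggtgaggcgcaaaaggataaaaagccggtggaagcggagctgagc
HSPD1: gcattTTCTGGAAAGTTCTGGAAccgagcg
A 2-block match, GAANNTTC or TTCNNGAA, was found for 10 of the 15 genes (HSPA1A, HSPA1B, HSPA1L, HSPA4L, HSPA6, HSPA9, HSPB1, HSPB3, HSPB8 and HSPD1), that is in 10 of their 19 windows, and in 13.5% of all windows; every 3-block match also holds a 2-block one. The ER stress element, CCAAT and CCACG with 9 bases between them, was found for 0 of the 15 and in 0.0769% of all windows. These are matches of letters in a fixed window and not sites.

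The line labels were read against marker genes before the comparisons. All 4 measured LNCaP markers (KLK3, KLK2, FOLH1 and SPDEF) were past 2-fold lower on the array labelled LNCaP-AI, set against LNCaP, while 6 of 7 PC3 markers were past 2-fold higher. Against PC3-L, 0 of 3 LNCaP markers and 1 of 7 PC3 markers, the chemokine gene CXCL8, were past 2-fold on that array. At these markers it therefore goes against its line label and is like PC3-L, and it is named by its label throughout. The PC3 markers also differed between the PC3 arrays. On PC3-L against PC3-H 3 of 7 were past 2-fold higher (VIM, ANXA1 and UCHL1) and 1 lower (LCN2). Against PC3-H the array labelled LNCaP-AI had the same 3 past 2-fold higher and 2 lower (CXCL8 and LCN2), and SPDEF was lower too. VIM and UCHL1 were within 2-fold between LNCaP and PC3-H. Of the fibroblast, Schwann cell, endothelial and leukocyte markers 9 of 17 had a named probe. CD68, a lysosomal gene, was the only 1 of these past 2-fold, at 630 on PC3-L against 290 on PC3-H and at 553 on the array labelled LNCaP-AI against 102 on LNCaP; NKG7 lay between 74.6 and 88 and CD14 between 26.9 and 32.1 on the 4 arrays. Its part in the results was not tested. Array medians were 39.8 to 41.2 intensity units.

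**Figure D1:**
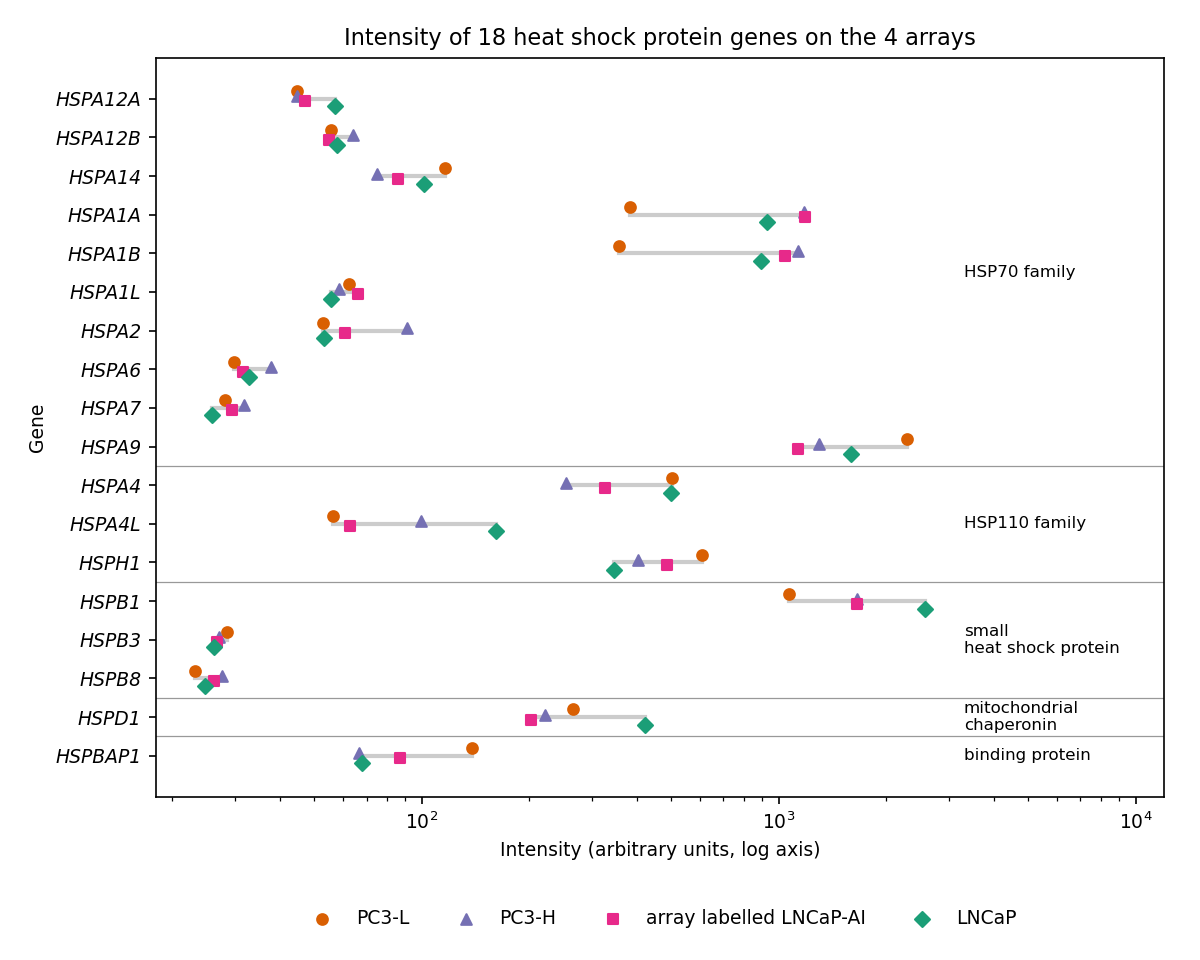
Intensity on a log axis (horizontal) of each of the 18 genes (vertical, grouped by family) on the PC3-L array, the PC3-H array, the array labelled LNCaP-AI and the LNCaP array, with a grey line from the lowest to the highest array of a gene. HSPA1A and HSPA1B are low on PC3-L alone, while HSPA7, HSPB3 and HSPB8 stay between 23.2 and 31.8 on every array.

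HSPA1A and HSPA1B encode the main stress-inducible HSP70, with nearly identical products. HSPA1A measured 383 intensity units on PC3-L against 1176 on PC3-H, and 1188 on the array labelled LNCaP-AI against 929 on LNCaP. HSPA1B had 356 on PC3-L against 1129 on PC3-H, and 1044 on the array labelled LNCaP-AI against 890 on LNCaP. PC3-L was thus the low array of these genes, and the other 3 arrays lay within 1.27-fold of each other for HSPA1B and 1.28-fold for HSPA1A. On the scale log2(intensity + 1) the differences between PC3-L and PC3-H were −1.62 for HSPA1A (3.07-fold lower) and −1.66 for HSPA1B (3.17-fold lower). Of all genes tested in the pair, 1.25% and 1.2% were at least as far lower.

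The same genes set the array labelled LNCaP-AI apart from PC3-L, whose line markers it shares. HSPA1A was 3.10-fold higher on it than on PC3-L (log2 difference 1.63) and HSPA1B 2.93-fold (1.55), and only 0.21% and 0.256% of genes tested were at least as far higher. Against PC3-H the log2 differences of that array were 0.01 for HSPA1A and −0.11 for HSPA1B. Against LNCaP they were 0.35 and 0.23, both within 2-fold.

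Both genes had 5 probes, and the probe with the highest mean stood for the gene. Over the 5 probes the PC3 difference ran from −1.64 to −1.54 for HSPA1A and from −1.66 to −1.60 for HSPA1B, and the difference of the array labelled LNCaP-AI from PC3-L ran from 1.56 to 1.65 and from 1.48 to 1.61. The probes are not replicates: their values rest on the same hybridisation, and probes for such near-identical copies may not separate them, so the pair may count as 1 signal. Against LNCaP the 5 probes of HSPA1B ran from 0.00 to 0.34.

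**Figure D2:**
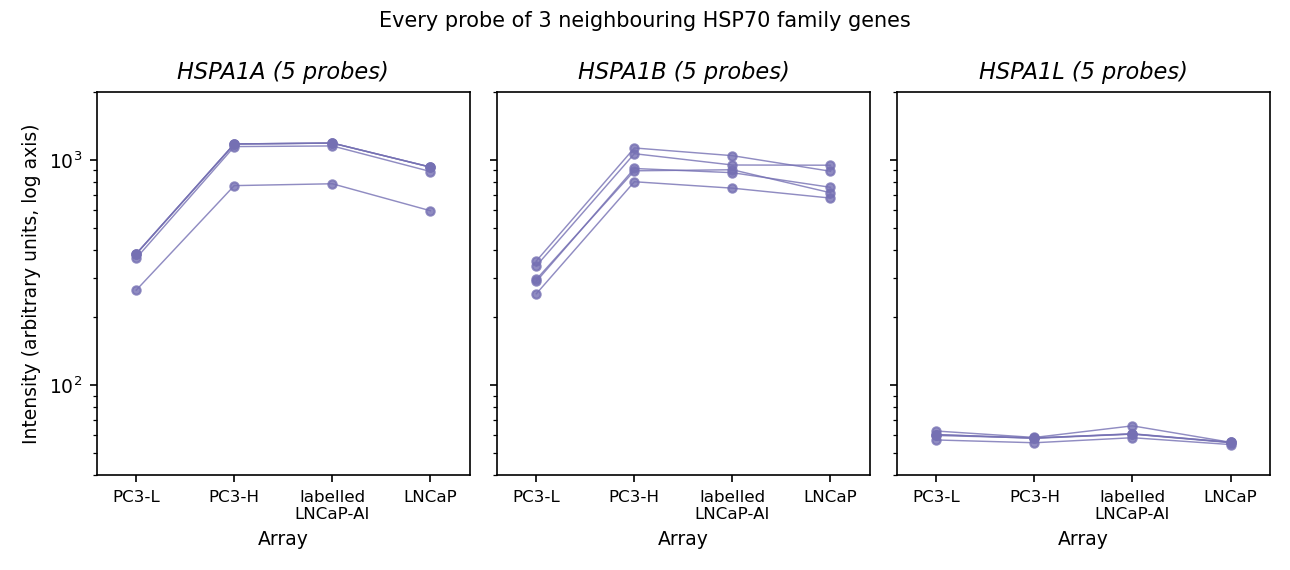
Intensity (vertical, log axis) of every probe of HSPA1A, HSPA1B and HSPA1L (1 line per probe, 5 per gene) on the 4 arrays (horizontal). All HSPA1A and HSPA1B probes are lowest on PC3-L, and those of HSPA1L run between 54.5 and 66 throughout.

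The neighbouring gene HSPA1L had 62.6 on PC3-L against 58.7 on PC3-H, and 66 on the array labelled LNCaP-AI against 55.8 on LNCaP. Its log2 differences were 0.09 and 0.24, so the low level of HSPA1A on PC3-L had no counterpart in these values. HSPA1L was dim on all arrays, not far above the array medians of 39.8 to 41.2. A drop as large as that of HSPA1A could hardly show there, and a part of the shared upstream window was not tested. Over its 5 probes the PC3 difference ran from 0.04 to 0.09.

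HSPA9, the mitochondrial HSP70, had 2280 on PC3-L against 1297 on PC3-H, and 1131 on the array labelled LNCaP-AI against 1594 on LNCaP. It was highest on PC3-L, the array on which HSPA1A was lowest. The log2 difference between PC3-L and PC3-H was 0.81 (1.76-fold, within 2-fold, but 1.02 with quantile normalization), and that of the LNCaP pair was −0.49. The array labelled LNCaP-AI was 2.01-fold below PC3-L (−1.01), just past the threshold, and −0.99 with a trend in gene length and gene density taken out.

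HSPA2, an HSP70 with a known role in sperm formation, had 52.7 on PC3-L against 91 on PC3-H, and 61 on the array labelled LNCaP-AI against 53.2 on LNCaP, so PC3-H was its high array (−0.78 and 0.20). HSPA14, which encodes a ribosome-associated relative of HSP70, had 116 on PC3-L against 75 on PC3-H, and 85.9 on the array labelled LNCaP-AI against 101 on LNCaP (0.63 and −0.24). HSPA12A had a log2 difference of 0.00 between PC3-L and PC3-H and −0.27 in the LNCaP pair, and HSPA12B had −0.21 and −0.07. These 4 genes were within 2-fold in both pairs.

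HSPA6, an HSP70 that human cells make mainly after heat shock, had 29.7 on PC3-L against 37.8 on PC3-H, and 31.6 on the array labelled LNCaP-AI against 32.7 on LNCaP. It reached the 40th percentile of all probes, the filter on dim genes, on PC3-H alone. HSPA7, a near copy of HSPA6, stayed between 25.8 and 31.8 and did not reach it, and probes may not separate these copies. HSPA6, whose 3-block heat shock element is shown above, thus lay below or just above the filter on all 4 arrays, while HSPD1, the other gene shown with such an element, lay between 202 and 423.

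The HSP110 family, the exchange factors of HSP70, differed in direction within the pairs. HSPA4L had 56.4 on PC3-L against 99.4 on PC3-H, and 63.1 on the array labelled LNCaP-AI against 162 on LNCaP. It was lower on both low glycan arrays, with a log2 difference of −0.81 from PC3-H and −1.34 (2.54-fold) from LNCaP, where 2.69% of genes were at least as far lower. With the length and density trend removed it was past 2-fold lower in the PC3 pair as well. On LNCaP it was also above PC3-H, and PC3-L in place of the array labelled LNCaP-AI gave −1.50 against LNCaP.

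HSPA4, whose product is an exchange factor of HSP70 in the cytosol, had 501 on PC3-L against 253 on PC3-H, and 326 on the array labelled LNCaP-AI against 498 on LNCaP. Its log2 difference of 0.98 between PC3-L and PC3-H was just within 2-fold (1.00 and just past it with median centring), and that of the LNCaP pair was −0.61. PC3-L and LNCaP stood together at its high end. HSPH1, a heat-inducible member like HSPA4L, had 611 on PC3-L against 402 on PC3-H, and 485 on the array labelled LNCaP-AI against 346 on LNCaP. It was higher on both low glycan arrays (0.60 and 0.49), within 2-fold in each pair.

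HSPB1, the small heat shock protein HSP27, had 1070 on PC3-L against 1661 on PC3-H, and 1660 on the array labelled LNCaP-AI against 2565 on LNCaP. The difference was −0.63 in both pairs, and PC3-H and the array labelled LNCaP-AI had the same level (log2 difference −0.00). PC3-L was 2.40-fold below LNCaP (−1.26). HSPB3, a small heat shock protein of muscle, and HSPB8, which works with the co-chaperone BAG3, stayed between 23.2 and 28.5 and passed the filter in no pair.

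HSPD1, the mitochondrial chaperonin HSP60, had 265 on PC3-L against 221 on PC3-H, and 202 on the array labelled LNCaP-AI against 423 on LNCaP. LNCaP was its high array, and the others lay within 1.31-fold. The log2 difference was 0.26 between PC3-L and PC3-H, and −1.06 (2.09-fold lower) between the array labelled LNCaP-AI and LNCaP. With the arrays quantile normalized the second value was −0.998, just within 2-fold.

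HSPBAP1, which encodes the protein that binds HSPB1, had 138 on PC3-L against 66.5 on PC3-H, and 86.6 on the array labelled LNCaP-AI against 67.9 on LNCaP. It was the only 1 of the 18 genes past 2-fold higher on PC3-L (log2 difference 1.04, 2.06-fold), and 7.86% of all genes were at least as far higher. The difference was 0.96 with quantile normalization 0.90 with a pseudocount of 16 and 0.88 with the length and density trend removed, all within 2-fold. In the LNCaP pair it was 0.35.

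In the PC3 pair 15 of the 18 genes passed the filter, and 3 were past 2-fold, HSPBAP1 higher and HSPA1A and HSPA1B lower. Among all 11126 genes tested 12.3% were past 2-fold, 8.58% higher and 3.77% lower, and with a quadratic trend with gene length and the span of 10 neighbouring genes removed 575 were higher and 520 lower, against 955 and 419 without removal. The share of the 15 was 20%, and 2 genes were past 2-fold when HSPA1A and HSPA1B count once, so that with so few genes no difference from the background is read. Their median log2 difference was 0.00, against −0.02 over all genes. On the array labelled LNCaP-AI against LNCaP, 2 of 14 genes were past 2-fold, HSPA4L and HSPD1, both lower (14.3%), against 10.6% of 11135 genes, 5.13% lower and 5.45% higher. The median was −0.15, against 0.00 over all genes. Against PC3-L, 3 of 14 were past 2-fold on that array (21.4%), HSPA1A and HSPA1B higher and HSPA9 lower. Of all 10942 genes 2.79% were past it, 0.832% higher and 1.96% lower. Here too HSPA1A and HSPA1B may be 1 signal. Against PC3-H, 0 of 15 genes were past 2-fold on the array labelled LNCaP-AI, where 7.33% of all genes were (3.98% higher and 3.35% lower). On PC3-L against LNCaP, 5 of 14 were, HSPBAP1 higher and HSPA1A, HSPA1B, HSPA4L and HSPB1 lower, against 11.7% of all genes (7.24% higher and 4.51% lower).

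The PC3 and LNCaP pairs share no array, and 14 of the 18 genes passed in both. Of these, 3 were higher in both pairs (HSPA1L, HSPH1 and HSPBAP1), 3 lower in both (HSPA12B, HSPA4L and HSPB1), 5 higher in the PC3 pair and lower in the LNCaP pair, and 3 the reverse, whatever the size (HSPA12A, at 0.00 in the PC3 pair, counts as higher). The shares were 21.4%, 21.4%, 35.7% and 21.4%, against 25.6%, 25.7%, 23.2% and 25.3% of 10755 genes. In 8 of 15 genes the array labelled LNCaP-AI was nearest to PC3-H, in 4 to PC3-L and in 3 to LNCaP, against 33.1%, 38.8% and 28.1% of all genes.

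**Figure D3:**
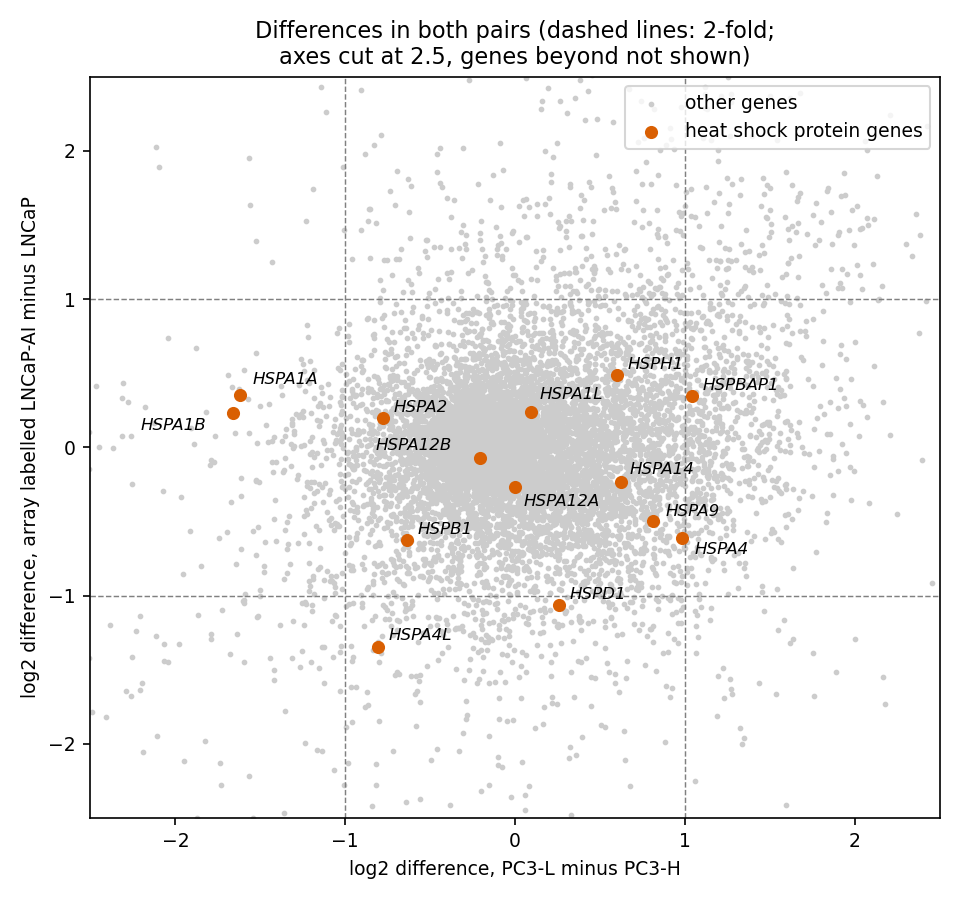
Log2 difference between PC3-L and PC3-H (horizontal) against that between the array labelled LNCaP-AI and LNCaP (vertical) for the 14 heat shock protein genes that passed the filter in both pairs (orange) and for all other genes (grey); dashed lines mark 2-fold. HSPA1A and HSPA1B lie at the left near −1.6 with values above 0 on the vertical axis, and HSPA4L and HSPD1 lie below the lower line.

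The low glycan label was also set against the high one over both lines, with the labelled line as a covariate, which leaves 1 residual degree of freedom. In this limma fit 0 of 15 genes and 0 of 11509 genes overall (0%) passed a Benjamini-Hochberg adjusted p of 0.05, two-sided, and at an unadjusted p under 0.05 the counts were 1 and 1014. The 1 gene was HSPA4L, with a log2 difference of −1.07 ± 0.28 (SE; limma adjusted p = 0.376), lower in 2 of 2 pairs. HSPB1 had −0.63 ± 0.24 (limma adjusted p = 0.587), HSPBAP1 0.69 ± 0.30 (limma adjusted p = 0.638) and HSPH1 0.54 ± 0.25 (limma adjusted p = 0.666). HSPA1A, which differed in direction between the pairs, had −0.63 ± 0.53 (limma adjusted p = 0.900). The fit rests on a line label that the array labelled LNCaP-AI goes against. It also rests on PC3 glycan labels that the free-text descriptions give the other way round. With those labels HSPA4L, HSPB1, HSPBAP1 and HSPH1 would differ in direction between the pairs, and no fit used those labels.

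Partners of the heat shock proteins were read from lists of named genes. Of 14 heat-inducible members 7 had a named probe and passed the filter in the PC3 pair, where 0 were past 2-fold higher and 2 lower (HSPA1A and HSPA1B), with a median of −0.63. Among these 7, HSPH1 and HSPD1 had values above 0, so in the PC3 pair the inducible genes did not go one way. In the LNCaP pair 6 passed, with 0 higher, 2 lower (HSPA4L and HSPD1) and a median of −0.20. Among all genes 8.58% were past 2-fold higher and 3.77% lower in the PC3 pair. In the LNCaP pair 5.45% were higher and 5.13% lower. On PC3-L against LNCaP 4 of 6 inducible genes were past 2-fold lower (HSPA1A, HSPA1B, HSPA4L and HSPB1) and 0 higher. The median was −1.27, and 1 gene, HSPH1, was above 0. Of all genes 4.51% were lower and 7.24% higher there. On the array labelled LNCaP-AI against PC3-H 0 of 7 were past 2-fold, where 7.33% of all genes were. With so few inducible genes, of which HSPA1A and HSPA1B may be 1 signal, no difference from these shares is read. The transcription factor gene HSF1 had 153 on PC3-L against 256 on PC3-H, and 212 on the array labelled LNCaP-AI against 156 on LNCaP. Its log2 differences were −0.73 and 0.45, within 2-fold in each pair. Those of HSPA1A had the same signs (−1.62 and 0.35). PC3-L and LNCaP differed by −1.28 for HSPA1A and by −0.02 for HSF1. The array labelled LNCaP-AI and PC3-H differed by 0.01 for HSPA1A and by −0.27 for HSF1. Whether HSF1 RNA goes with HSPA1A was not tested. BAG3, an exchange factor and HSF1 target named here after its values were seen, had 180 on PC3-L against 129 on PC3-H, and 273 on the array labelled LNCaP-AI against 158 on LNCaP (0.47 and 0.79).

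Of 27 heat shock factors and HSP70 or HSP90 co-chaperones 18 were measured. On PC3-L 0 were past 2-fold higher and 1 lower, the exchange factor gene BAG1, at 40.3 against 84.7 on PC3-H (−1.05, and −0.84 with a pseudocount of 16). On the array labelled LNCaP-AI 0 of 18 were past 2-fold. The medians were −0.02 and −0.12, against −0.02 and 0.00 over all genes. HSF2 is not analysed here. Of the chaperonin and prefoldin list only 6 prefoldin subunit genes were measured, and 0 were past 2-fold in either pair (medians 0.25 and 0.13).

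Genes of protein folding in the endoplasmic reticulum and of the unfolded protein response had opposite medians in the pairs. On PC3-L 2 of 19 were past 2-fold higher and 0 lower (median 0.36), and on the array labelled LNCaP-AI 0 were higher and 4 lower (median −0.54). The share past 2-fold was 10.5% in the PC3 pair, where 8.58% of all genes were higher and 3.77% lower, and 21.1% in the LNCaP pair, where 5.45% were higher and 5.13% lower. The medians of all genes were −0.02 and 0.00. ATF4, the transcription factor of the integrated stress response, had 427 on PC3-L against 170 on PC3-H (log2 difference 1.32). SEC63, which encodes the J-domain protein of the translocation channel, had 333 on PC3-L against 142 on PC3-H (log2 difference 1.22, and 0.97 on the log2 scale with the length and density trend removed). Past 2-fold lower on the array labelled LNCaP-AI, with LNCaP given second, were ATF3 (41 against 92.2), the degradation factor SEL1L (214 against 475), the pseudokinase TRIB3 (74 against 153) and DDIT3 (37.7 against 76.8). ATF3, TRIB3 and DDIT3 were within 2-fold with a pseudocount of 16. XBP1, a transcription factor of this response, had log2 differences of 0.74 and −0.94.

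Mitochondrial chaperones and proteases were past 2-fold in 0 of 8 on PC3-L (median −0.22). On the array labelled LNCaP-AI 1 of 8 was higher, the protease gene HTRA2, at 165 against 81 on LNCaP (0.90 on the log2 scale with a pseudocount of 16), and 0 lower (median −0.13). Within the heat shock protein genes, the mitochondrial members measured were HSPA9 and HSPD1, and the array labelled LNCaP-AI was below LNCaP and below PC3-L for both.

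**Figure D4:**
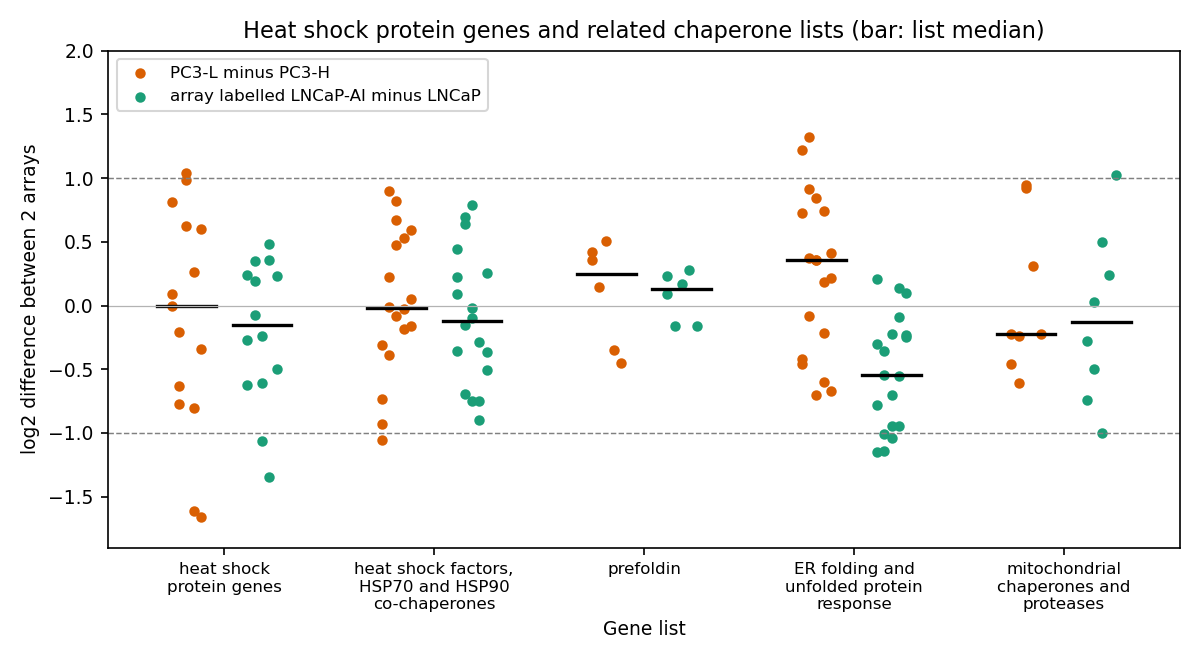
Log2 difference between 2 arrays (vertical) of each gene that passed the filter in 5 lists (horizontal), for PC3-L minus PC3-H (orange) and the array labelled LNCaP-AI minus LNCaP (green), with bars at the list medians and dashed lines at 2-fold. The endoplasmic reticulum list has medians of 0.36 and −0.54, and the heat shock protein genes spread to both sides of 0 in both pairs.

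The heat shock protein genes differ widely in length, and differences in the PC3 pair went with gene span over all genes. Genes spanning under 5 kb had a median log2 difference of −0.13 between PC3-L and PC3-H, those of 5 to 20 kb −0.11, those of 20 to 60 kb 0.06 and those over 60 kb 0.26. Of the tested genes HSPA1A, HSPA1B, HSPA6 and HSPB1 span under 5 kb, and all 4 were lower on PC3-L. HSPA7 and HSPB3 are as short but did not pass the filter. Of the 7 tested genes that span 20 to 60 kb, HSPA4, HSPA9, HSPA14, HSPBAP1 and HSPH1 were higher on PC3-L, and HSPA4L and HSPA12B lower. With the trend removed the difference was −1.30 for HSPA1A and −1.34 for HSPA1B, still past 2-fold, and 0.83 for HSPA4 and −0.49 for HSPB1. In the LNCaP pair the span medians lay between −0.04 and 0.02. In bulk RNA of a culture, fewer cells that express a gene and less RNA per cell cannot be told apart.

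**Figure D5:**
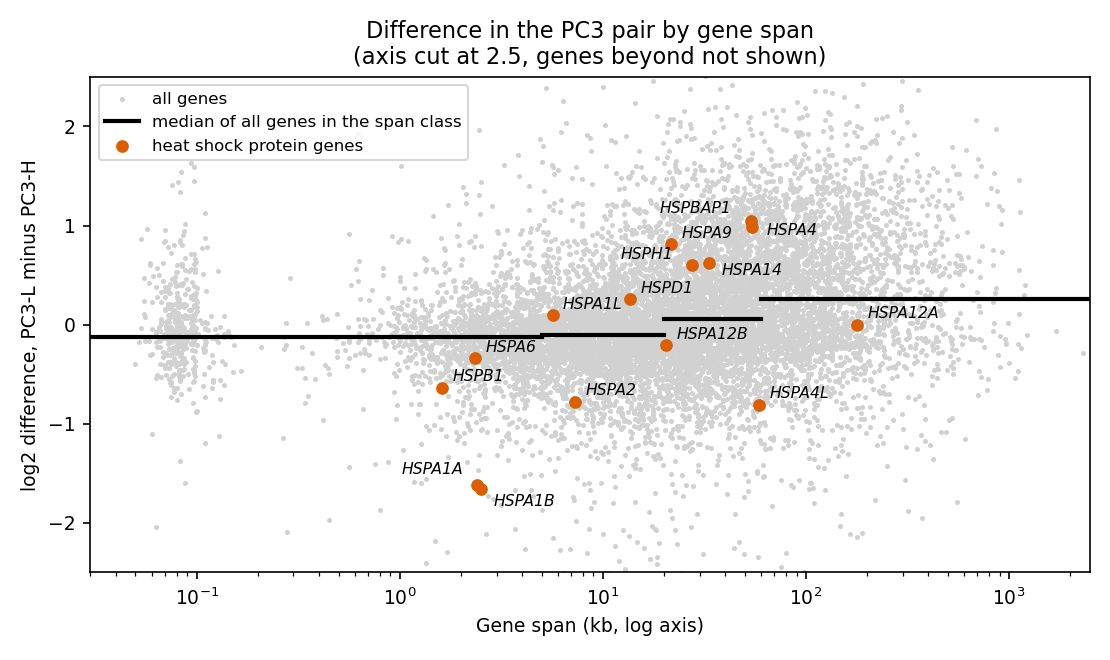
Log2 difference between PC3-L and PC3-H (vertical) against gene span in kb on a log axis (horizontal) for the 15 heat shock protein genes that passed the filter (orange) and all genes that passed (grey), with black bars at the median of each span class. HSPA1A and HSPA1B lie far below the −0.13 median of genes under 5 kb.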

How the data were processed

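Total RNA was biotin-labelled for Affymetrix whole-transcript arrays, per the labels' protocols. The authors deposited linear intensity values for 37934 probes, from 17.6 to 11188, and the sources used here do not say how these were normalised. The design text names GeneSpring GX 12.6 and both pairs. A named probe existed for 14006 genes (14952 probes with 1 symbol, 22982 with none). The probe with the highest mean stood for a gene. Log2 differences were taken after adding 1, over genes that reached, in the higher of both arrays, the 40th percentile of all probes there, and 2-fold was the threshold. The fit over both lines used limma 3.58.1 in R 4.3.3, and the code was tested on simulated data. Promoter windows (250 bases before to 50 after a start) came from RefSeq, GRCh38.p14, alignment from Biopython 1.88. The genes, lists and comparisons were chosen with earlier results of these data known. The naming rule took members past 2-fold in either pair or within 0.15 log2 of it and the best known members, up to 4 genes past 2-fold of each other list, and HSF1, HSF2, XBP1 and ATF4; the remaining members are given to account for all 18. The 2-block motif search was added after the first motif results. Titles and source names gave the groups; the free-text descriptions give the PC3 glycan labels the other way round, and call LNCaP androgen-independent. The number of arrays limits the precision. The 18 symbols matched RefSeq unchanged.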

Additional observations from a re-analysis of the deposited data

Results flagged for a closer look

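HSPA1A and HSPA1B went opposite ways in the pairs: the log2 difference was −1.62 and −1.66 between PC3-L and PC3-H, and 0.35 and 0.23 between the array labelled LNCaP-AI and LNCaP. HSPD1 had 0.26 on PC3-L against PC3-H and −1.06 on the array labelled LNCaP-AI against LNCaP. With 1 array per group, whether the pairs differ was not tested.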

How the results depend on the processing

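Under 8 alternatives of scaling, filter, pseudocount, probe choice and length trend, HSPA1A lay between −1.68 and −1.30 and HSPA1B between −1.71 and −1.34 in the PC3 pair, past 2-fold in each. At a threshold of 1.5-fold the count of heat shock protein genes was 10 (PC3 pair), 4 (LNCaP pair) and 6 (array labelled LNCaP-AI against PC3-L), and at 2-fold it was 3, 2 and 3. In the LNCaP pair it was 1 with quantile normalization. It was 5 with PC3-L in place of the array labelled LNCaP-AI. This substitution, like the counting of HSPA1A and HSPA1B as 1 gene, was chosen after seeing the data. With it TRIB3 turned to 0.27, HSPA9 to 0.52, HSPA1A to −1.28 and HSPA1B to −1.32. With the PC3 glycan labels of the free-text descriptions, every value of the PC3 pair turns sign. Those past 2-fold among the single genes followed were HSPA1A 1.62, HSPA1B 1.66, HSPBAP1 −1.04, BAG1 1.05, ATF4 −1.32 and SEC63 −1.22. In limma, 0 of the heat shock protein genes were called under every setting, with 15 tested, or 18 without the filter. Over all genes the count of 0 became 115 with an intensity trend in eBayes, and without the line term 280 without PC3-H and 71 without LNCaP. No paired analysis by replicate number was possible because each group had 1 array and the labels give no replicate numbers; the limma fit pairs the arrays by labelled line. Of values of single genes under an alternative, 229 kept their side of 2-fold and 19 changed side. A further 7, past 2-fold at first, turned sign: TRIB3 and the genes listed for the free-text labels. Values within 2-fold at first that turned sign count among the 229 or the 19. The cause was not tested. Values near the floor of the table understate folds.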
